A study of Mus musculus with 4 samples.

Results

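The transcription factor p53, encoded by Trp53, and 6 genes it is known to switch on, Cdkn1a, Mdm2, Ccng1, Trp53inp1, Bax and Pvt1, were followed in liver nuclei of mice that lack Nampt in hepatocytes. These 7 genes were chosen by name from the 54464 genes of the count matrix, and each was measured in every cell type and mouse. Liver nuclei of 3 WT mice (C57BL6/BomTac Nampt cKO, in which Nampt is flanked by loxP sites) and 3 HNKO mice (C57BL6/BomTac Alb-Cre Nampt cKO) were profiled by single-nucleus RNA-Seq (snRNA-Seq). HNKO mice carry the same floxed gene plus Cre driven by the albumin promoter, and the authors describe the knockout as hepatocyte-specific. Whether Nampt was kept in the other cell types, cholangiocytes included, was not tested here. All 6 mice were females from the nicotinamide riboside intervention cohort, were 8 to 12 weeks old when diets began and had eaten a purified control diet (PD) for 6 weeks. Part of that cohort drank water with nicotinamide riboside, and whether any of these mice did is not given in the sources used here. Every mouse was marked by 1 hashtag and is 1 replicate.

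Damage to DNA activates protein kinases that stabilise p53, and p53 then raises the transcription of genes that halt the cell cycle, repair DNA or start apoptosis. Mdm2 is both a target and the main brake on p53, because its protein marks p53 for degradation, so p53 is regulated mostly at the protein and not at the mRNA level. In liver, Cdkn1a is a well-known brake on the division of hepatocytes. Pvt1 is a long noncoding RNA gene next to the Myc oncogene that is itself bound by p53.

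In hepatocyte nuclei, 4 of the 7 genes had higher levels in every HNKO mouse than in every WT mouse. They were Pvt1, Cdkn1a, Mdm2 and Bax, with fold changes of 2.43, 1.91, 0.51 and 0.36 on the log2 scale. Of all 11810 genes tested, 6.42% were higher in HNKO without overlap. The 7 genes were chosen with earlier results of these data known, so their count is a description and not a test. In the few hepatocyte nuclei free of other cell types' markers, Pvt1 was still separated, while Mdm2, Bax and Cdkn1a overlapped. Counts were small there, with 0 to 2 UMIs of Cdkn1a and 1 to 11 of Bax per mouse, and 3 to 8 of Pvt1 per WT mouse. None of the 7 passed the adjusted threshold of edgeR, and Trp53 itself was at about the same level in both genotypes. Trp53inp1 stood apart, since it was about as abundant in HNKO mouse 1 and HNKO mouse 2 as in WT mice but an order of magnitude lower in HNKO mouse 3.

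The 7 genes lie on 6 chromosomes in the GENCODE M21 annotation of the GRCm38 build. Trp53 (chr11:69580359-69591873) and Ccng1 (chr11:40748552-40755311) share chromosome 11 but are on opposite strands. Cdkn1a is at chr17:29090976-29100727 and Mdm2 at chr10:117688875-117710758. Trp53inp1 is at chr4:11156431-11174379 and Bax at chr7:45461697-45466898. Pvt1, annotated as a lincRNA, spans 340111 bases at chr15:62037986-62378096 on the plus strand and begins 47611 bases past the end of Myc on the same strand. An annotated protein-coding model, Gm45808, overlaps Bax by 915 bases on its strand but is not a row of the matrix, and Bax reads from that stretch could belong to either.

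Promoter windows from RefSeq (GRCm38.p6, 250 bases before to 50 after the start site) were given for 5 of the 7 genes, and all 5 genes had the p53 half-site in one of them. The half-site is the 10-base pattern that p53 binds as a pair, and reads the same on both strands; it occurred in 2745 of 32851 windows, or 8.36%. The stretches that hold it are shown because p53 binds pairs of this pattern, with the half-site in capitals, 5′ to 3′ along the strand of the gene.
Cdkn1a (chr17:29090881-29090962, plus strand): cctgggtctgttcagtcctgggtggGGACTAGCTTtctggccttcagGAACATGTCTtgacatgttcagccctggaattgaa
Mdm2 (chr10:117710910-117710969, minus strand): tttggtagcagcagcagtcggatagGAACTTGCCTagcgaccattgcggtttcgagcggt
Ccng1 (chr11:40755437-40755496, minus strand): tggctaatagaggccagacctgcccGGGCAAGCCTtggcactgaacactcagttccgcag
Bax (chr7:45467065-45467124, minus strand): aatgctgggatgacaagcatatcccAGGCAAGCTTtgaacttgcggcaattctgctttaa
Trp53 (chr11:69580259-69580318, plus strand): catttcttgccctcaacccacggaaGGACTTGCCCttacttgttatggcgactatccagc

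Cdkn1a had 2 half-sites, whose first bases lie 73 and 51 bases before the start site, while a second Cdkn1a window had none. The windows of Trp53, Ccng1, Mdm2 and Bax held 1 half-site each and no pair. In Trp53 the pattern began 75 bases before the start site, in Ccng1 185, in Mdm2 186 and in Bax 201. A match describes letters only, and binding was not measured here. Trp53inp1 and Pvt1 had no entry in the table.

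The 5193 nuclei fell into 6 cell types, of which hepatocytes were by far the most numerous with 4410. Each mouse gave 562 to 847 hepatocyte nuclei and 3524497 to 6635290 unique molecular identifiers (UMIs) in them. Levels are given as CPM, the UMIs of a gene in the summed nuclei of a mouse scaled to a total of 1000000 UMIs, and each gene is compared with itself only. The median hepatocyte nucleus held 3572 to 4162 UMIs in WT and 4800 to 5786 in HNKO mice. Nampt itself was at 84.8, 104.8 and 96.9 CPM in WT and 84.1, 148.2 and 90.8 CPM in HNKO hepatocyte nuclei, so total Nampt reads did not set the genotypes apart. The matrix does not tell reads of the floxed exons from the others. Hashtag purity was lowest in HNKO mouse 3, where 63.4% of nuclei had under 50% of their hashtag counts from their own hashtag, against 0.753% to 15.1% in the other mice. The 6 hepatocyte markers summed to 21751 to 28188 CPM in WT and 9728 to 24512 CPM in HNKO hepatocyte nuclei, and all 6 were present in each mouse. The low value was that of HNKO mouse 3, at 44.9% of the level over all hepatocytes, and the other HNKO mice were at 24512 and 23896 CPM. HNKO mouse 3 also had the lowest Trp53inp1 and the highest Mdm2, Ccng1 and Trp53 levels given next, and the part of this difference in them was not tested.

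The genotype comparison asked whether p53 targets differ in hepatocytes that have lost Nampt. Over the whole table, 0 of 11810 genes (0%) passed a false discovery rate (FDR) of 0.05 in edgeR's quasi-likelihood test, while 698 had an unadjusted p under 0.05 and DESeq2 called 21. Groups that did not overlap were found for 6.42% of genes with the higher values in HNKO and for 5.17% with the lower. Overlap was judged here after TMM scaling. Among the 7 genes these counts were 4 and 0. Since the genes were picked with earlier results of these data known, the counts describe them and are not a test.

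**Figure D1:**
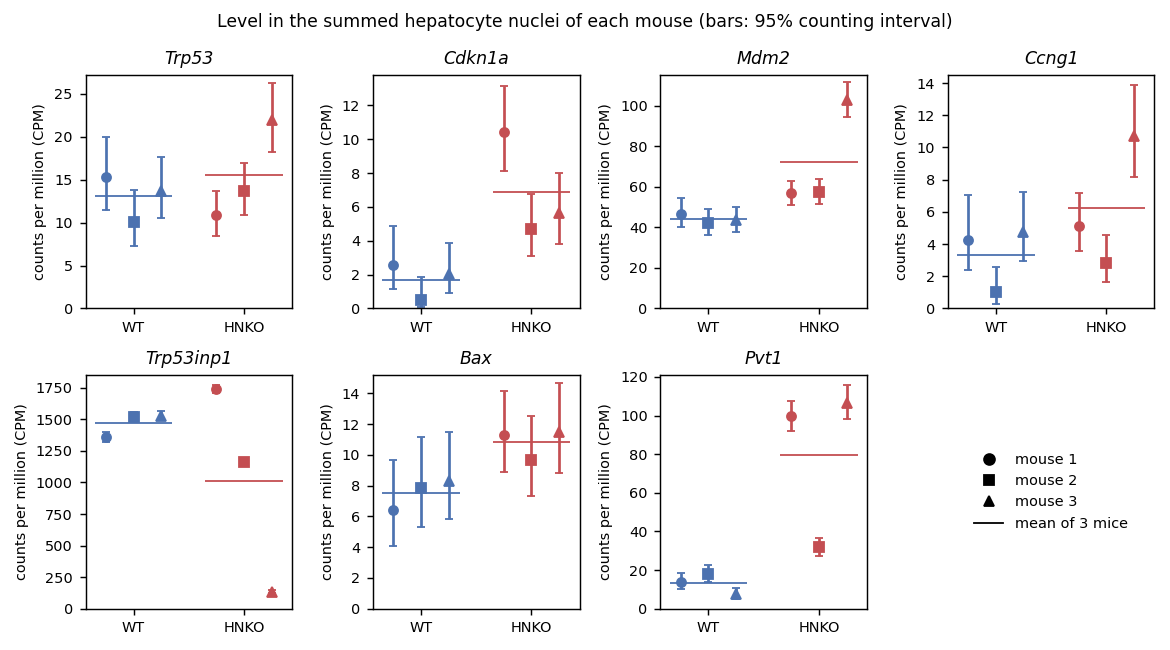
CPM of each gene in the summed hepatocyte nuclei of each mouse (one symbol per mouse, lines at the mean of 3 mice, bars the 95% Poisson interval of the count, every axis from 0). Pvt1, Cdkn1a, Mdm2 and Bax are higher in all 3 HNKO mice than in all 3 WT mice, Trp53 and Ccng1 overlap, and Trp53inp1 is at 136.5 CPM in HNKO mouse 3 against 1161 CPM or more elsewhere.

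Trp53 mRNA was at 15.3, 10.1 and 13.7 CPM in the hepatocyte nuclei of the WT mice and at 10.9, 13.7 and 22.0 CPM in those of the HNKO mice. The groups overlapped, and only HNKO mouse 3 lay above the WT range. The log2 fold change was 0.04 ± 0.25 (SE, n = 3 and 3 mice), with a 95% interval from -0.54 to 0.62 (edgeR, FDR 0.977).

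Cdkn1a encodes p21, the inhibitor of cyclin-dependent kinases through which p53 arrests the cell cycle. Its counts were small, 9, 2 and 9 UMIs in WT against 69, 28 and 31 UMIs in HNKO hepatocyte nuclei. That is 2.55, 0.506 and 2.02 CPM against 10.4, 4.68 and 5.64 CPM. All HNKO mice were above all WT mice, and in the highest of them, HNKO mouse 1, 60 of the 69 UMIs came from the cluster HNKO 1, which held 658 of its 812 hepatocyte nuclei. The means were 1.69 ± 1.06 CPM and 6.91 ± 3.06 CPM (SD, n = 3 each), and the log2 fold change was 1.91 ± 0.60 with a 95% interval from 0.54 to 3.31 (edgeR, unadjusted p = 0.0126, FDR 0.820). UMIs of Cdkn1a were seen in 123 of 4410 hepatocyte nuclei, and no nucleus held more than 4.

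Mdm2, the ubiquitin ligase that limits p53, was at 46.8, 42.3 and 43.6 CPM in WT and at 56.8, 57.6 and 102.8 CPM in HNKO hepatocyte nuclei. WT mice lay close together, 2 HNKO mice were slightly above them and HNKO mouse 3 was at more than double the WT mean of 44.2 CPM. The log2 fold change was 0.51 ± 0.19 (95% interval 0.07 to 0.94, edgeR, unadjusted p = 0.0270, FDR 0.820). Without HNKO mouse 3 it was 0.35.

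Bax, the pore-forming protein that commits mitochondria to apoptosis, was at 6.43, 7.85 and 8.32 CPM in WT and 11.3, 9.69 and 11.5 CPM in HNKO hepatocyte nuclei. The groups did not overlap, but the gap between the highest WT and the lowest HNKO mouse was smaller than the counting interval of either. The log2 fold change was 0.36 ± 0.23 (95% interval -0.18 to 0.90, edgeR, FDR 0.820). Ccng1, or cyclin G1, one of the earliest known p53 targets, was at 4.26, 1.01 and 4.72 CPM in WT and 5.12, 2.84 and 10.7 CPM in HNKO hepatocyte nuclei. HNKO mouse 3 was again the highest, the groups overlapped, and the log2 fold change of 0.66 ± 0.58 had a 95% interval from -0.66 to 2.00 (edgeR, FDR 0.851).

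Trp53inp1 encodes a stress-induced protein that promotes p53 activity and takes part in autophagy. It was at 1362, 1520 and 1529 CPM in WT, and at 1738, 1161 and 136.5 CPM in HNKO hepatocyte nuclei. HNKO mouse 1 was above the WT range and HNKO mouse 2 below it, while HNKO mouse 3 was far below both. The log2 fold change of -0.57 ± 0.78 therefore carried a wide 95% interval, from -2.37 to 1.24 (edgeR, FDR 0.896). Without HNKO mouse 3 it was -0.02. Hepatocyte nuclei whose own hashtag made up at least 50% of their hashtag counts gave the same picture, with 131.8 CPM in HNKO mouse 3 from 364 nuclei against 1164 to 1739 CPM in the other mice.

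Pvt1 showed the largest difference of the 7 genes. It was at 14.0, 17.9 and 7.53 CPM in WT and at 99.6, 31.9 and 106.6 CPM in HNKO hepatocyte nuclei. All HNKO mice exceeded all WT mice, with HNKO mouse 1 and HNKO mouse 3 about 3 times as high as HNKO mouse 2. The means were 13.1 ± 5.23 CPM and 79.3 ± 41.3 CPM (SD, n = 3 each), and the log2 fold change was 2.43 ± 0.49 (95% interval 1.31 to 3.55, edgeR, unadjusted p = 0.00107, FDR 0.820). The call depended on the tool, the filter and 1 mouse, since the adjusted p was 0.00148 in DESeq2, 0.00425 in edgeR without a filter on low counts and 0.0371 in edgeR without HNKO mouse 2.

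Introns were counted, and the median unspliced share of hepatocyte UMIs was 73.7%, 74.4% and 75.4% in WT and 78.2%, 75.8% and 76.4% in HNKO mice, higher in every HNKO mouse. Its part in the Pvt1 values, or in those of the other genes, was not tested.

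Pvt1 is also abundant in other liver cells, and their markers were read in the same hepatocyte sums. The 5 Kupffer cell markers reached 0.0923% to 0.174% of their Kupffer cell level in WT and 0.122% to 0.221% in HNKO hepatocyte nuclei, whereas Pvt1 was at 0.519% to 1.23% and 2.19% to 7.34% of its own Kupffer cell level. The 7 cholangiocyte markers moved with Pvt1, at 3.86% to 4.30% of their cholangiocyte level in WT and at 7.78%, 3.76% and 6.30% in the 3 HNKO mice, mostly through Pkhd1, while Krt19 had no UMI in any mouse. The 5 stellate cell markers were at 0.547% to 1.23% in WT and 2.69%, 0.423% and 1.69% in HNKO mice, mostly through Reln. In hepatocyte nuclei without a single UMI of any of these markers or of the endothelial and CD45+ cell markers, a selection made after the data were seen, Pvt1 was at 18.0, 12.9 and 6.42 CPM in WT and 149.7, 26.2 and 106.9 CPM in HNKO mice. The difference of Pvt1 was as large there, at 2.66 on the log2 scale, although these were 63 to 181 nuclei per mouse and edgeR gave an FDR of 0.998. Mdm2, Bax and Cdkn1a overlapped between genotypes in these nuclei. The selection favours nuclei with few UMIs, and it left 11 to 43 UMIs of Mdm2 and 1 to 11 of Bax per mouse. Of Pvt1 it left 8, 7 and 3 UMIs in WT and 32.1, 18 and 41 in HNKO mice. The share of all genes without overlap in these nuclei was not counted. The part of the lower depth was not tested. Mdm2 was at 53.9, 46.1 and 68.5 CPM in WT and 51.3, 62.6 and 99.1 CPM in HNKO mice, and its log2 fold change was 0.22 instead of 0.51. Bax was at 15.0, 1.84 and 12.8 CPM against 14.0, 16.0 and 10.4 CPM, and Cdkn1a had 2, 0 and 1 UMIs against 1, 0 and 2 UMIs.

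HNKO nuclei were deeper than WT nuclei, so the share of hepatocyte nuclei with at least 1 UMI was compared after each nucleus had been thinned to 1000 UMIs, which left out none. For Pvt1 the shares were 2.14%, 1.26% and 1.22% in WT and 8.74%, 2.81% and 10.0% in HNKO mice. For Mdm2 they were 5.34%, 4.63% and 3.35% against 6.53%, 6.11% and 10.6%. For Cdkn1a they were 0.178%, 0% and 0.304% against 1.23%, 0.488% and 0.590%, where 0% in WT mouse 2 means 0 of 713 nuclei, a count that allows a share of up to 0.421%. None of these 3 genes overlapped between genotypes, and the exact two-sided permutation test gave p = 0.1 for each (n = 3 and 3). This is the smallest value that 3 against 3 mice allow, and it follows from the lack of overlap. After Benjamini-Hochberg adjustment over the 7 genes it was 0.233. The share of all genes without overlap by this measure was not counted. Before thinning, UMIs of Pvt1 were seen in 770 of the 4410 hepatocyte nuclei, and 340 nuclei held 2 or more. The share for Bax was lower in HNKO by 0.176 percentage points after thinning to 1000 UMIs (1.22% ± 0.380 against 1.04% ± 0.322, SD, n = 3 each, exact permutation p = 0.7). Its direction turned with the setting, to a difference of 1.01 points at 2000 UMIs, 3.17 points without thinning and 0.0149 points without WT mouse 1.

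The authors' clusters separate hepatocytes further, and 9 of the 13 hepatocyte clusters drew over 90% of their nuclei from 1 mouse. Cluster and mouse can therefore rarely be told apart, and levels are compared within a mouse where it has several clusters of at least 20 nuclei. As the clusters were drawn from the same expression values, these comparisons are descriptions with counting intervals only.

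**Figure D2:**
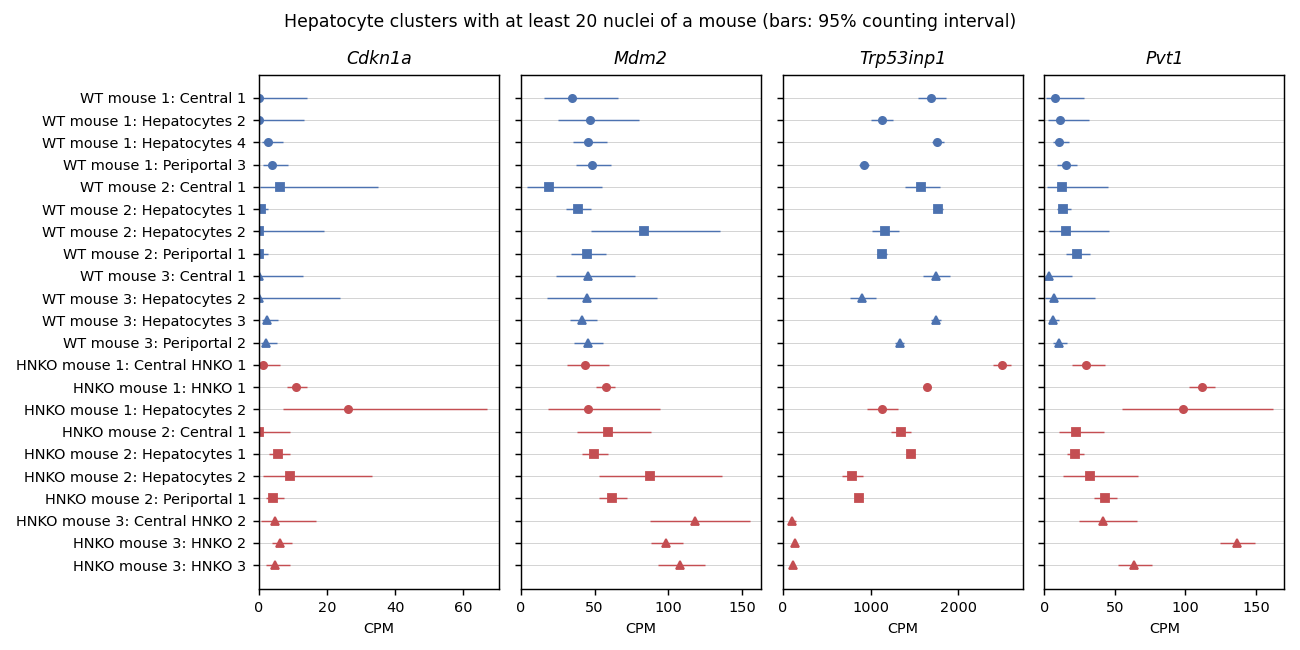
CPM of 4 of the genes in each of the 22 sums of a hepatocyte cluster within a mouse (at least 20 nuclei; blue WT, red HNKO; bars the 95% Poisson interval). Trp53inp1 is near 0 on this scale in every cluster of HNKO mouse 3, at 111.0 to 144.5 CPM, and Pvt1 differs between clusters of the same HNKO mouse.

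In HNKO mouse 1, Pvt1 was at 111.4 CPM in the cluster HNKO 1 but at 29.4 CPM in the pericentral cluster Central HNKO 1. In HNKO mouse 3 it was at 136.5 CPM in HNKO 2, 63.3 CPM in HNKO 3 and 41.6 CPM in Central HNKO 2. In HNKO mouse 2, where WT and HNKO nuclei shared clusters, Pvt1 was at 21.5 CPM in Hepatocytes 1 and 42.9 CPM in Periportal 1, against 13.4 and 22.8 CPM in the same clusters of WT mouse 2. Pericentral nuclei thus held less Pvt1 than the rest in all 3 HNKO mice or, in HNKO mouse 2, as little as Hepatocytes 1 (22.2 CPM in Central 1).

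Cdkn1a followed Pvt1 in HNKO mouse 1, with 60 UMIs or 10.9 CPM in HNKO 1 and a single UMI or 1.12 CPM in Central HNKO 1. In the 37 nuclei of this mouse in Hepatocytes 2 it was at 26.2 CPM from only 4 UMIs. Hepatocytes 2 held nuclei of all WT mice as well, and there the WT nuclei had no UMI of Cdkn1a among 625451, which allows up to 4.80 CPM. In HNKO mouse 3 the 3 clusters lay between 4.63 and 6.29 CPM.

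Mdm2 was high in each hepatocyte cluster of HNKO mouse 3. It was at 117.9 CPM in Central HNKO 2, 98.6 CPM in HNKO 2 and 108.1 CPM in HNKO 3. No other sum of at least 20 nuclei reached these levels. The nearest were Hepatocytes 2 of HNKO mouse 2 at 87.5 CPM (95% interval 52.7 to 136.6) and of WT mouse 2 at 83.2 CPM (47.6 to 135.1). Those intervals cover the levels of HNKO mouse 3. Clusters of HNKO mouse 1 with at least 20 nuclei ranged from 43.6 to 57.4 CPM.

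Trp53inp1 was higher in pericentral than in periportal clusters of the 4 mice that had both. It was at 1689 CPM in central and 919.1 CPM in periportal nuclei of WT mouse 1, at 1579 and 1122 CPM in WT mouse 2, and at 1743 and 1327 CPM in WT mouse 3. In HNKO mouse 2 the values were 1343 and 864.0 CPM. The ratio of central to periportal nuclei was 1.31 to 1.84, and central nuclei were higher in 4 of 4 mice. In each of them a cluster without a zone in its name was at least as high, with a counting interval that overlapped the central one. The levels were 1762 CPM in Hepatocytes 4 of WT mouse 1 and 1763 CPM in Hepatocytes 1 of WT mouse 2. They were 1749 CPM in Hepatocytes 3 of WT mouse 3 and 1463 CPM in Hepatocytes 1 of HNKO mouse 2. The highest level of any cluster, 2498 CPM, was found in Central HNKO 1 of HNKO mouse 1, while all 3 clusters of HNKO mouse 3, the pericentral one included at 111.0 CPM, were low. Pvt1 ran the other way, with ratios of 0.347 to 0.526 in the same 4 mice, but on only 1 to 9 central UMIs per mouse.

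Over the 22 sums of cluster and mouse, the genes most like each of the 4 members with a mean of at least 10 CPM were ranked by Pearson's r of log2(CPM + 1) among 7278 genes. Trp53inp1 was followed most closely by Lpin2 (r = 0.96), Mat1a (r = 0.96) and Insig2 (r = 0.95). For Pvt1 they were Shroom3 (r = 0.92), Cadm1 (r = 0.87) and Trim7 (r = 0.86), and for Mdm2 they were Cebpa (r = 0.90), Gcc2 (r = 0.90) and BC004004 (r = 0.88). For Trp53 they were Bbip1 (r = 0.95), Zfp948 (r = 0.88) and Cog7 (r = 0.84), on 0 to 79 Trp53 UMIs per sum. Between members, r was 0.68 for Cdkn1a and Pvt1 and -0.77 for Mdm2 and Trp53inp1. The sums of HNKO mouse 3 held both the lowest Trp53inp1 (111.0 to 144.5 CPM) and the highest Mdm2 (98.6 to 117.9 CPM) of the 22. How far r rests on this mouse was not tested. The sums share mice and depth, so the values are descriptions.

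Other liver cell types were sparse, with 245 endothelial, 171 stellate, 177 CD45+, 80 Kupffer and 110 cholangiocyte nuclei. WT mice had too few Kupffer cell and cholangiocyte nuclei (under 10) for a comparison, and WT mouse 3 too few CD45+ nuclei. In sums of nuclei, a change in the cells that make up a type and a change in RNA per cell cannot be told apart.

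**Figure D3:**
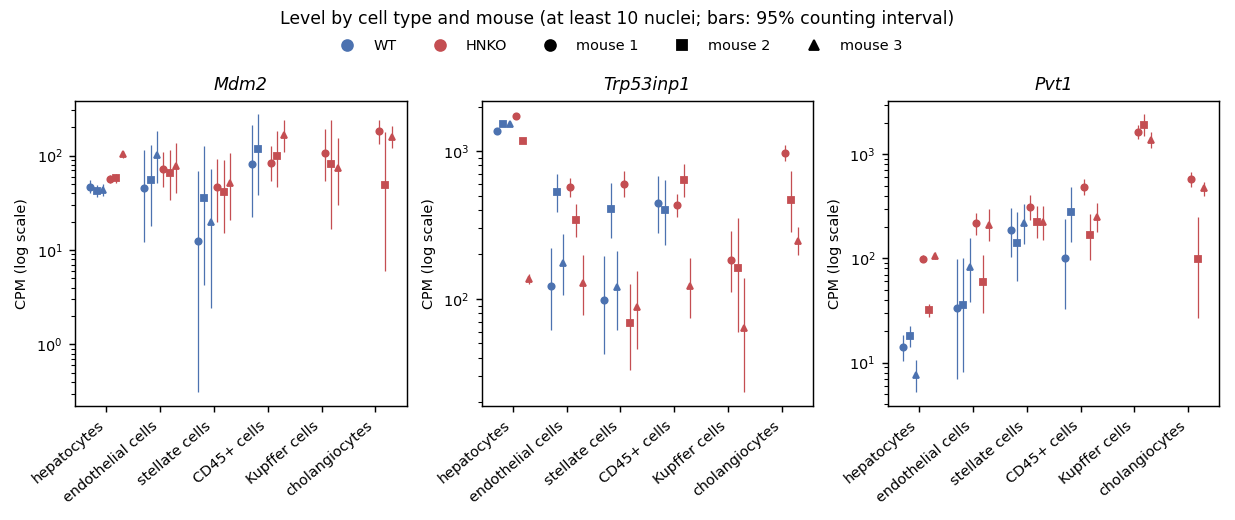
CPM of Mdm2, Trp53inp1 and Pvt1 (log axis) by cell type and mouse, for sums of at least 10 nuclei (blue WT, red HNKO; bars the 95% Poisson interval). Pvt1 is highest in Kupffer cells, at 1373 to 1913 CPM, and Trp53inp1 is highest in hepatocytes, except in HNKO mouse 3.

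Pvt1 was lowest in hepatocytes. In all 6 mice it was higher in endothelial and in stellate cells than in hepatocytes of the same mouse, in all 5 mice with enough nuclei it was higher in CD45+ cells, and in all 3 HNKO mice in Kupffer cells and cholangiocytes. Pooled over all mice of both genotypes, Pvt1 was at 50.4 to 55.6 CPM in hepatocytes (95% Poisson interval). This interval covers counting error only, and no single mouse lay inside it, with a range over mice of 7.53 to 106.6 CPM. The pooled levels of the other types were 135.5 CPM in endothelial, 234.0 CPM in stellate and 320.4 CPM in CD45+ cells. They were 485.9 CPM in cholangiocytes and 1452 CPM in Kupffer cells. The ranges over mice overlapped between each neighbouring pair of this order except cholangiocytes and Kupffer cells. After thinning to 1000 UMIs, 58 of 80 Kupffer cell nuclei pooled over all mice (72.5%) had a UMI of Pvt1. The exact 95% binomial interval, 61.4% to 81.9%, covers the counting of nuclei and not the spread between mice.

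Endothelial cells gave the same direction for Pvt1 as hepatocytes. It was at 33.6, 35.8 and 83.1 CPM in WT and 217.2, 59.6 and 211.4 CPM in HNKO endothelial nuclei, with HNKO mouse 2 again the lowest of the HNKO mice and inside the WT range. The log2 fold change was 1.65 ± 0.56 (95% interval 0.44 to 2.89, edgeR, unadjusted p = 0.0120, FDR 0.996), and 0 of 2743 genes (0%) were called, with 104 at an unadjusted p under 0.05 and 1 called by DESeq2. Without a filter on low counts the FDR of Pvt1 was 0.0456. Its genotype effect in hepatocytes exceeded that in endothelial cells by 0.77 ± 0.56 (95% interval -0.31 to 1.87, edgeR, FDR 0.935).

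In stellate cells Pvt1 was at 185.4, 141.2 and 219.7 CPM in WT and 312.2, 225.9 and 221.4 CPM in HNKO mice. The lowest HNKO value lay next to the highest WT value, and after TMM scaling the groups overlapped. The log2 fold change there was 0.43 ± 0.33 (95% interval -0.28 to 1.14, edgeR, FDR 0.826). In CD45+ cells it was at 101.6 and 280.3 CPM in 2 WT mice and 485.7, 166.6 and 250.8 CPM in HNKO mice, with overlap and a log2 fold change of 0.70 ± 0.60 (95% interval -0.61 to 2.02, edgeR, FDR 0.860). No gene was called in either type, 0 of 2266 in stellate cells (0%) and 0 of 2703 in CD45+ cells (0%), with 160 and 222 at an unadjusted p under 0.05 and 1 and 4 called by DESeq2.

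Trp53inp1 was lower in endothelial, stellate, CD45+ and Kupffer cells than in hepatocytes of the same mouse in every comparison, and in cholangiocytes in 2 of 3 mice. The exception was HNKO mouse 3, whose cholangiocytes held 247.8 CPM against 136.5 CPM in hepatocytes. Endothelial nuclei held 123.2, 528.2 and 175.4 CPM in WT and 572.9, 341.5 and 128.1 CPM in HNKO mice, and the groups overlapped. HNKO mouse 3 was the lowest HNKO mouse in endothelial, CD45+, Kupffer cell and cholangiocyte nuclei (128.1, 122.4, 63.8 and 247.8 CPM) but not in stellate cells, where HNKO mouse 2 was lower (68.5 against 88.6 CPM). Hepatocyte transcripts were present in these nuclei, since the 6 hepatocyte markers summed to 17.7% to 35.5% of their hepatocyte level in endothelial, 5.94% to 19.0% in stellate and 21.1% to 54.3% in CD45+ nuclei. The highest, HNKO mouse 2 at 54.3% in CD45+ nuclei, also had the highest Trp53inp1 there (636.9 CPM). Their part in the Trp53inp1 values was not tested.

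In the main fit, the genotype effect on Trp53inp1 was called different between hepatocytes and endothelial cells. The difference of hepatocytes minus endothelial cells was -1.42 ± 0.33 on the log2 scale (95% interval -2.08 to -0.77, edgeR with mouse as a block, FDR 0.0221). This was 1 of 13 genes called out of 11517 (0.113%), and of the other members none was called. It was not called with RLE size factors (FDR 0.0649), without the block (FDR 0.934), or without WT mouse 1, WT mouse 3 or HNKO mouse 3 (-1.11, -1.16 and -1.10, FDR 0.551, 0.444 and 0.435). Fitted alone, the log2 effects were -0.57 ± 0.78 in hepatocytes and 0.37 ± 0.55 in endothelial cells, and neither passed its own test. Both standard errors were larger than that of the difference, which was fitted within mice. As the call was lost with RLE size factors, without the block and without single mice, the effects are not shown to differ.

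Mdm2 was detected in all cell types. It was higher in CD45+ cells than in hepatocytes of the same mouse in 5 of 5 mice. The CD45+ levels were 81.3 and 116.8 CPM in WT and 84.0, 98.0 and 165.2 CPM in HNKO mice. Mdm2 was lower in stellate cells in 6 of 6 mice, but on 1 or 2 UMIs per WT and 6 to 8 per HNKO mouse. The 95% Poisson interval of each stellate sum included the hepatocyte level of the same mouse. Stellate levels were 12.4 to 35.3 CPM in WT and 41.1 to 51.7 CPM in HNKO mice, without overlap. Mdm2 was not among the genes tested there, and the share of all genes without overlap was not counted. The genotype effect on Mdm2 in CD45+ cells was 0.19 ± 0.59 (95% interval -1.10 to 1.49, edgeR, FDR 0.984). Cholangiocyte nuclei of HNKO mouse 1 and HNKO mouse 3 held 180.5 and 157.7 CPM, above their hepatocytes, whereas those of HNKO mouse 2 held 49.3 CPM on 2 UMIs.

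Trp53, Cdkn1a, Ccng1 and Bax were too sparse outside hepatocytes to be compared. Cdkn1a had no UMI in the 171 stellate nuclei, where 0 UMIs of 692238 allow up to 4.33 CPM, and a level like the 4.93 CPM of hepatocytes is at the edge of what this depth can show. It had 6.5 estimated UMIs in endothelial, 5 in CD45+, 2 in Kupffer cell and 8 in cholangiocyte nuclei. Ccng1, Bax and Trp53 had 4 to 15, 3 to 18 and 8 to 16 UMIs in those 5 types, and Myc, the neighbour of Pvt1, had no UMI in endothelial nuclei (0 of 946786, which allows up to 3.17 CPM) and 124 in hepatocytes.

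Other genes of the p53 pathway were counted by lists in the hepatocyte fit. Of 34 direct p53 targets beyond the members, 25 were tested, 0 were called, 17 had a log2 fold change above 0 and 8 below, and the median was 0.22 against 0.02 over all 11810 genes. Over all genes, 6184 of 11810 (52.4%) were above 0. Of the 25 targets, 4 were higher and 1 was lower in HNKO without overlap, against 6.42% and 5.17% of all genes.

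**Figure D4:**
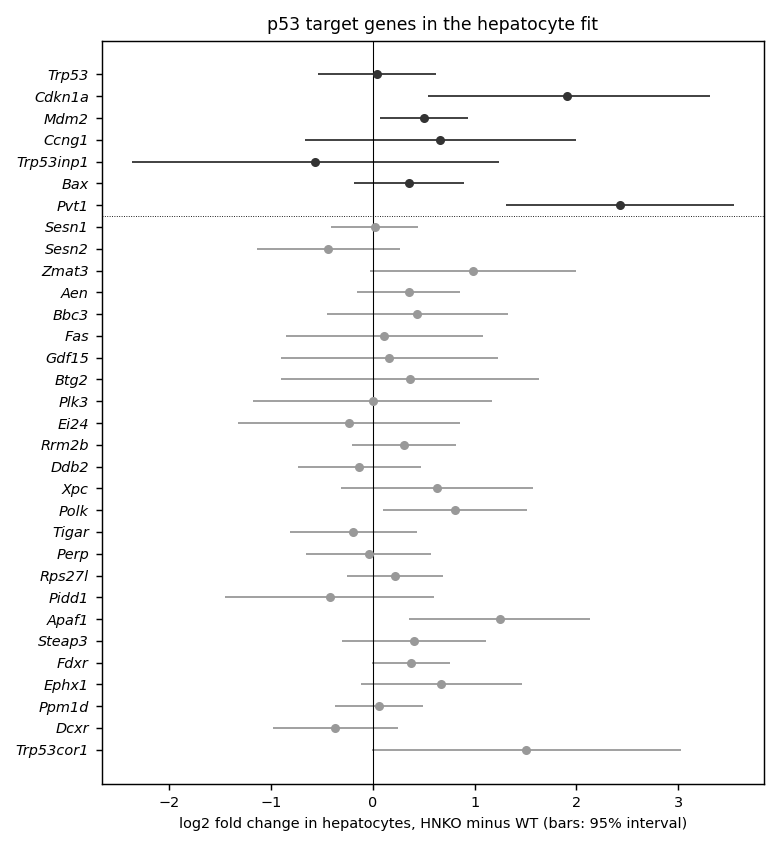
log2 fold change in hepatocytes, HNKO minus WT, with its 95% interval (edgeR, 3 and 3 mice) for the 7 members (dark, above the dotted line) and the 25 other p53 targets that were tested (grey). The intervals of Pvt1, Cdkn1a, Mdm2, Apaf1 and Polk lie above 0, and no gene passed the FDR threshold.

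Apaf1, the scaffold of the apoptosome, had the smallest unadjusted p of this list, at 8.89, 7.91 and 8.77 CPM in WT and 23.8, 10.0 and 35.7 CPM in HNKO hepatocyte nuclei (log2 fold change 1.25 ± 0.39, edgeR, FDR 0.820). HNKO mouse 2 was the lowest of the HNKO mice, as it was for Pvt1. Polk, a DNA polymerase that reads past lesions, was at 24.4, 21.3 and 19.3 CPM against 33.5, 25.8 and 74.5 CPM (0.81 ± 0.31, edgeR, FDR 0.820), and these groups overlapped after TMM scaling. Fdxr, the mitochondrial ferredoxin reductase, and Zmat3, an RNA-binding protein, did not overlap, at 44.2 ± 5.80 against 64.8 ± 11.6 CPM and 4.67 ± 2.95 against 10.4 ± 2.06 CPM (SD, n = 3 each). Trp53cor1, the noncoding RNA beside Cdkn1a, was at 7.57 ± 5.51 CPM in WT and 25.7 ± 20.5 CPM in HNKO, and Ephx1, an epoxide hydrolase, at 26.1 ± 7.71 and 48.0 ± 23.4 CPM, both with overlap.

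Genes that regulate p53 and genes that sense or repair DNA damage were both without a call. Of 16 p53 regulators and kinases, 13 were tested, 0 were called, 5 were above 0 and 8 below, and the median was -0.08. The 4 with the smallest unadjusted p were Trp53bp1, a damage-response protein that binds p53 (0.26 ± 0.16), the deacetylase Sirt1 (-0.35 ± 0.23), the deubiquitinase Usp7 (0.18 ± 0.17) and the kinase Chek2 (0.48 ± 0.48). Of 20 DNA repair and damage-sensing genes, 15 were tested and 0 called, 12 were above 0 and 3 below (52.4% of all genes were above 0), and the median was 0.19. Parp2, Topbp1, Mdc1 and Parp1 led that list at log2 fold changes of 0.45, 0.31, 0.50 and 0.28, with intervals that all included 0. Parp1 and Parp2 encode enzymes that consume NAD+, the product of the pathway that Nampt feeds.

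Proliferation genes were mostly too low to test in these nuclei, with 6 of 18 tested, 0 called, 3 above and 3 below 0 and a median of -0.11. Ccnd1, cyclin D1, was at 9.96 ± 5.85 CPM in WT and 21.3 ± 9.91 CPM in HNKO, while Ccnb2, Ccne2 and Pcna had log2 fold changes of -0.76, -0.43 and -0.30, all with overlap. Of the other CDK inhibitors and Myc, 2 of 5 were tested and 0 called, 1 above and 1 below 0 with a median of 0.17, and they were Myc at 0.39 ± 0.60 and Cdkn1b at -0.05 ± 0.32.

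Partners of Bax in apoptosis were mostly above 0. All 12 were tested, 0 were called, 10 were above 0 and 2 below (52.4% of all genes were above 0), and the median was 0.24. Bcl2, which restrains Bax, was at 3.97, 2.28 and 4.05 CPM in WT and 22.7, 3.84 and 24.7 CPM in HNKO hepatocyte nuclei, with HNKO mouse 2 inside the WT range (log2 fold change 2.12 ± 0.65, edgeR, unadjusted p = 0.0115, FDR 0.820). Bcl2l11, which encodes the pro-apoptotic protein Bim, was at 62.4, 104.8 and 67.4 CPM against 45.1, 48.6 and 18.0 CPM (-1.15 ± 0.44, edgeR, FDR 0.820). It was lower in every HNKO mouse, as were 5.17% of all genes. Bcl2l1, encoding the anti-apoptotic Bcl-xL, was at 102.3 ± 58.8 and 200.2 ± 141.8 CPM, and Diablo, released from mitochondria in apoptosis, at 13.7 ± 0.728 and 18.4 ± 4.44 CPM (SD, n = 3 each).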

How the data were processed

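snRNA-Seq was performed on liver nuclei of 3 WT and 3 HNKO mice, 4250 sorted per mouse, pooled after hashtag staining and sequenced as RNA and hashtag pools. The authors aligned and quantified the reads (Cell Ranger 5.0.1 and alevin on GRCm38, per the submitters' processing notes) and deposited estimated counts of UMIs per gene and nucleus, with introns counted, of which 10.1% of nonzero values were not whole within 0.001. The deposited hashtag counts and the authors' table of mouse and cluster names were used as they stand, and a matrix of the authors' SCTransform scores was not used here. Doublets of several hashtags were removed by the authors, and no further doublet caller was run.

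UMIs were summed per mouse and cell type (at least 10 nuclei), rounded and tested with edgeR 4.0.16 in R 4.3.3 (filterByExpr, TMM, quasi-likelihood F test on genotype, two-sided, Benjamini-Hochberg FDR over all genes, threshold 0.05). The difference between hepatocytes and endothelial cells was fitted with mouse as a block. Scripts were tested on simulated data. Poisson, binomial and floor limits (3 counts for a share of 0) cover counting error only. Shares were thinned with numpy 2.4.6 and tested by exact permutation in scipy 1.17.1. Alternatives were RLE size factors, DESeq2 1.42.0, no filter, thinning to 2000 UMIs, leaving out each mouse and hashtag or marker selections of nuclei, both chosen after seeing the data.

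The 7 genes and all lists were chosen with earlier results of these data known. Named were the members, Nampt, the 6 direct targets and the 4 genes of each other list with the smallest unadjusted p in the hepatocyte fit, and the 3 genes most like each member with a mean of at least 10 CPM. All p-values are two-sided and take the mouse, not the nucleus, as the unit. H2ax was matched by its current symbol.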

Additional observations from a re-analysis of the deposited data

Results flagged for a closer look

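In the main fit, the genotype effect on Trp53inp1 was called different between hepatocytes and endothelial cells, with a log2 difference of -1.42 (edgeR with mouse as a block, FDR 0.0221). It is listed because this difference was itself tested. The call was lost with RLE size factors (FDR 0.0649), without the block (FDR 0.934) and without WT mouse 1, WT mouse 3 or HNKO mouse 3 (FDR 0.551, 0.444 and 0.435). Its hepatocyte values were 1738, 1161 and 136.5 CPM in HNKO mice and its endothelial values 572.9, 341.5 and 128.1 CPM, against 1362, 1520 and 1529 CPM and 123.2, 528.2 and 175.4 CPM in WT mice. Groups of 3 mice are too small for a test of single outlying mice, so the low value of HNKO mouse 3 was not tested.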

How the results depend on the processing

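Leaving out each mouse gave 0 to 32 genes called in hepatocytes (32 without HNKO mouse 2), none in endothelial cells, 0 to 47 in stellate cells (47 without HNKO mouse 2, 1 without WT mouse 2), 0 to 10 in CD45+ cells (10 without HNKO mouse 2, 1 without HNKO mouse 3) and 5 to 32 for the difference between hepatocytes and endothelial cells (32 without HNKO mouse 2, 7 without WT mouse 3, 5 without HNKO mouse 3). Hepatocyte log2 fold changes ranged from -0.13 to 0.18 for Trp53, from 1.33 to 2.29 for Cdkn1a, from 0.35 to 0.61 for Mdm2, from 0.22 to 1.02 for Ccng1, from -1.31 to -0.02 for Trp53inp1, from 0.21 to 0.45 for Bax and from 2.06 to 2.79 for Pvt1, so that Trp53 alone changed direction. In other types they ranged for Trp53inp1 from -0.22 to 1.24 (endothelial), -1.31 to 1.14 (stellate) and -0.60 to 0.33 (CD45+), and for Mdm2 in CD45+ cells from -0.038 to 0.53. Differences between hepatocytes and endothelial cells ranged from -0.43 to 0.29 for Trp53, -4.78 to 2.64 for Cdkn1a, -0.15 to 0.59 for Mdm2, -1.19 to 0.082 for Bax, -0.23 to 1.23 for Pvt1 and -2.18 to -1.10 for Trp53inp1. Shares of nuclei with a UMI differed by -0.444 to 0.343 percentage points for Trp53 and -0.365 to 0.0149 for Bax.

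DESeq2 called 21, 1, 1 and 4 genes and no filter 35, 16, 29 and 23 in hepatocytes, endothelial, stellate and CD45+ cells, against 0 in each. Pvt1 in hepatocytes passed with DESeq2 (2.41) and no filter (2.45), and Trp53inp1 in CD45+ cells turned to 0.17 without a filter. Nuclei thinned to at most 2000 UMIs gave -0.076 for Trp53. With RLE size factors the Trp53 difference between types was 0.064. Without the mouse block that difference was called for 0 genes. Thinning to 2000 UMIs and not thinning gave share differences of 0.0137 and 1.89 percentage points for Trp53 and 1.01 and 3.17 for Bax, against -0.148 and -0.176. The cause was not tested. No paired analysis was possible because the hashtags give the mice no shared numbers. Fits per RNA pool were not run because nuclei could not be assigned to a pool. Depth limits Cdkn1a, Ccng1 and Bax, with under 300 UMIs each in all hepatocyte nuclei.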
